A study of Mus musculus with 4 samples.

Results

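Keratin and claudin genes were followed in whole lung of mice of the B6/J strain. A gene was included where its annotated symbol was Krt or Cldn followed by digits alone. Cldn5, which is expressed by endothelium, was left out, and each gene was read from its probe set with the highest mean. This gave 63 genes, 44 keratins and 19 claudins, of 18193 genes named on the array. The arrays held RNA of 2 wild type lungs and 2 lungs labelled IKKa floxed, 1 Affymetrix array each. IKKα is 1 of the kinases that switch on NF-κB transcription factors. Mice of both groups received adenovirus carrying Cre recombinase into the trachea and were killed 4 months later. The virus reaches whichever cells it infects, and the promoter that drives Cre, the number of floxed alleles and the age of the mice are not stated in the labels. The labels do not say that each array was a separate animal, so p-values here speak to the spread among these arrays only, and that spread may be technical.

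Keratins are the intermediate filament proteins of epithelial cells and assemble from 1 type I and 1 type II chain. Simple epithelia such as those of the alveoli use Krt8 and Krt18 with Krt7 and Krt19, basal cells of stratified epithelia use Krt5 and Krt14, and a large set is particular to hair, nail and epidermis. Claudins are membrane proteins of tight junctions, and the claudins a cell makes set how well its layer seals and which ions pass. Cldn18, Cldn3 and Cldn4 are the claudins best known from alveolar epithelium. IKKα is also needed for the epidermis to form its outer, terminally differentiated layers, and the comparison asks whether keratin and claudin transcripts in lung depend on the floxed allele once Cre has been given.

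None of the keratin and claudin genes passed the test between wild type and IKKa floxed lungs. Values are deposited intensities on a linear scale, and differences are log2 fold changes of intensity + 16, floxed minus wild type. A gene was tested where its mean intensity over the 4 arrays was at or above the 30th percentile of genes, an intensity of 21.0. Of the 63 genes, 23 were tested, 12 keratins and 11 claudins, and 0 passed a limma adjusted p of 0.05, where 1.77% of all 12735 genes tested passed, 1.01% higher and 0.762% lower in floxed lungs. At an unadjusted p under 0.05 there were 4 (Krt80, Krt84, Cldn18 and Cldn4), where 14.3% of all genes were under it. Krt84 and Cldn22 reached the filter through wild type alone, their floxed means lying below it, so their place among the tested genes favours a difference. Without them 3 of 21 genes had an unadjusted p under 0.05. In whole lung, fewer cells of a type and less RNA per cell cannot be told apart.

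Across the series, 225 genes passed, 128 higher and 97 lower in floxed lungs. The groups also differed in ways apart from the floxed allele. Xist, the RNA of the inactive X chromosome, was at 22.9 to 31.8 in wild type and 4246 to 4629 in floxed lungs. The 3′ to 5′ ratio of Gapdh, which rises as RNA degrades, was 1.18 and 1.10 for wild type against 1.44 and 1.68 for floxed lungs. That of actin was 2.65 and 2.46 against 2.67 and 2.77, which left almost no gap between the groups. By Xist, the wild type lungs read as male and the floxed lungs as female. The genotype cannot be told apart from this difference in sex, or from the Gapdh difference, in any comparison of the groups here. Markers of lung were bright on all arrays, with the surfactant gene Sftpc at 8743 to 13619 and the type 1 cell receptor Ager at 10995 to 13638.

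A mean intensity of at least 100 over the 4 arrays was taken as expressed, and 13 genes reached it, 8 keratins and 5 claudins. The table carries no detection calls, and probe sets bind with different efficiency, so this line is a rough guide and the intensities of different genes are not ranked against each other. The expressed keratins were Krt7, Krt8, Krt18, Krt19, Krt80, Krt79, Krt10 and Krt42. The expressed claudins were Cldn18, Cldn3, Cldn12, Cldn7 and Cldn10. With the line at 50 there were 18 genes, and at 200 there were 11. A further 10 genes were tested with means under 100, and 40 fell below the filter, 32 keratins and 8 claudins. Leaving out any 1 array kept the same 13 genes.

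**Figure D1:**
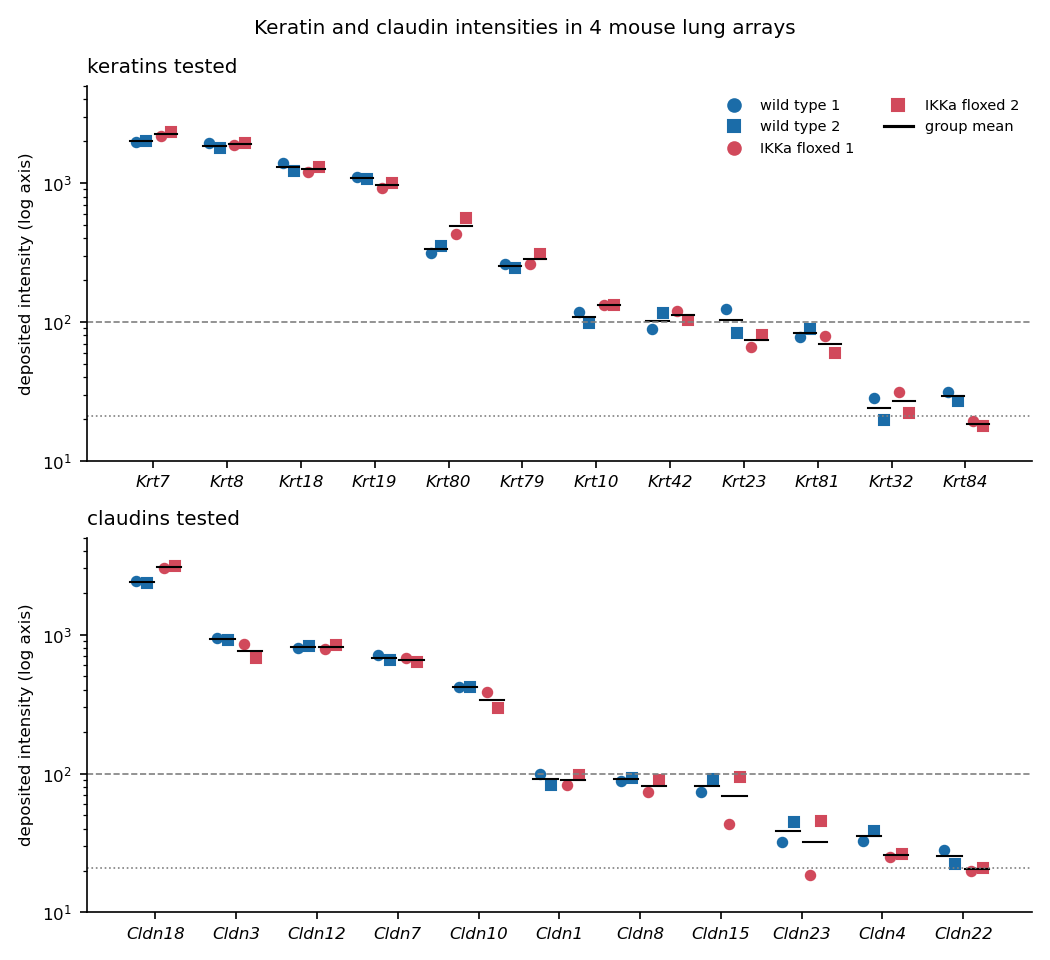
Deposited intensity (log axis) of the 12 keratins and 11 claudins tested, with 1 point per array, black bars for group means, a dashed line at 100 and a dotted line at the filter. Only the chosen probe sets are drawn. The points of most genes lie close together on the log axis. The groups do not overlap for 11 of the 23 genes, against 45.8% of all genes tested. Among the 11, Krt80 and Cldn18 stand higher and Cldn3 and Cldn4 lower on both floxed arrays.

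The main keratins of simple epithelium did not pass the test. Krt8, the type II chain found in nearly all simple epithelia, read 1943 and 1783 in wild type lungs, and 1875 and 1931 in floxed lungs. The groups overlapped, with a log2 fold change of 0.03 ± 0.12 SE (limma adjusted p = 0.941) and a 95% interval of -0.26 to 0.32, or 0.837- to 1.25-fold. The other 2 probe sets of Krt8 gave 0.02 and 0.00. Krt18, its type I partner, read 1390 and 1216 in wild type lungs, and 1209 and 1300 in floxed lungs, so these groups overlapped too (-0.05 ± 0.13 SE, interval -0.36 to 0.26, adjusted p = 0.902).

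Krt7 and Krt19, which also mark simple and ductal epithelia, had differences of opposite sign, and neither passed the test. Krt7 read 1988 and 1998 in wild type lungs, and 2183 and 2343 in floxed lungs, both floxed arrays being the higher (0.18 ± 0.12 SE, interval -0.10 to 0.46, adjusted p = 0.559). Krt19, a type I keratin that lacks most of the tail domain, read 1112 and 1064 in wild type lungs, and 928 and 1001 in floxed lungs, both floxed arrays being the lower (-0.17 ± 0.12 SE, interval -0.46 to 0.11, adjusted p = 0.582). Mesothelium, the lining of the lung surface, also makes Krt7, Krt8, Krt18 and Krt19, so whole lung does not separate its part in these values.

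Krt80, a type II keratin, read higher on both floxed arrays. Its values were 316 and 353 in wild type lungs, and 427 and 562 in floxed lungs. The groups did not overlap, and the means were 335 ± 26.7 and 495 ± 95.3 (SD, n = 2), with a log2 fold change of 0.53 ± 0.16 SE (interval 0.15 to 0.92, limma adjusted p = 0.203). Without floxed replicate 2, the highest array, the log2 fold change was 0.34 (adjusted p = 0.314), and without floxed replicate 1 it was 0.72 (adjusted p = 0.0866). Over all alternatives its adjusted p ran from 0.0731 to 0.557. The gene has 1 probe set here, so no other reading of it was at hand.

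The rest of the expressed keratins are best known from skin and its appendages. Krt79, a type II keratin of hair follicle and sebaceous duct, read 264 and 245 in wild type lungs, and 260 and 310 in floxed lungs, which overlapped (0.15 ± 0.14 SE, adjusted p = 0.679). Krt10, the type I chain of differentiating epidermis, read 117 and 98.4 against 133 and 132, higher on both floxed arrays (0.27 ± 0.13 SE, interval -0.04 to 0.58, adjusted p = 0.425). Krt42, a type I keratin best known from nail, read 89.2 and 115 against 120 and 103 with the chosen probe set, and 16.3 to 23.4 with its other probe set. The chosen one carries the suffix x, which Affymetrix gives to probe sets that may bind other transcripts, and with the mean of its probe sets Krt42 was under 100.

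The 4 tested keratins with means under 100 were Krt84, Krt23, Krt81 and Krt32. Krt84, a type II hair keratin, read 31.5 and 27.0 in wild type lungs, and 19.2 and 17.9 in floxed lungs, so both floxed arrays lay below the filter intensity (-0.39 ± 0.12 SE, interval -0.68 to -0.09, adjusted p = 0.220). Krt23, a type I keratin, read 124 and 82.9 against 66.5 and 81.0 (-0.40 ± 0.19 SE, adjusted p = 0.420). Its floxed arrays were both lower, and 81.0 against 82.9 was nearly no gap. Without wild type replicate 1 its value was -0.14, and without wild type replicate 2 it was -0.65 (adjusted p = 0.932 and 0.261). The hair keratins Krt81 and Krt32 overlapped between groups, with log2 fold changes of -0.23 and 0.10 and adjusted p of 0.564 and 0.837.

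The members given here for basal, squamous and injured epithelium had means below the filter in both groups. Krt5 read above the filter on wild type replicate 1, and Krt6a, which is outside the rule and given further below, passed it. Krt5, the type II chain of basal cells, read 30.3 and 7.42 in wild type lungs, and 3.41 and 12.5 in floxed lungs. Krt14, its partner, read 8.02 and 1.72 against 0.865 and 8.53. For both, the 2 groups overlapped. Krt15, another basal keratin, was at most 1.63 on any array. Krt17, a keratin of stressed epithelium, read 1.48 and 1.13 against 10.1 and 4.86, and Krt16, of the same kind, 2.77 and 1.68 against 15.3 and 12.2. With the chosen probe sets the floxed arrays were the higher for both, all under the filter. A second probe set of Krt17 read 1.83 and 0.683 in wild type lungs, and 0.777 and 0.815 in floxed lungs. Its log2 fold change was -0.04. Fitted with no filter, Krt16 had a log2 fold change of 0.71 ± 0.13 SE (limma adjusted p = 0.156) and Krt17 of 0.43 ± 0.15 SE (adjusted p = 0.395). In that fit 0 of the 63 genes passed and 12 had an unadjusted p under 0.05, where 11.3% of all 18193 genes did. The 12 went both ways and were not all keratins of injured epithelium. Krt36 stood at -0.61 and Krt78 at -0.57, and Cldn16 at 0.46 and Krt20 at 0.47, each also under the filter. A probe set listed for both Krt17 and Krt14, and so not used, read 1.36, 13.8, 16.4 and 2.24 in the order wild type 1, wild type 2, floxed 1, floxed 2. Krt13 and Krt4, keratins of oesophagus and of some airway cells, were at most 8.94 and 11.4 with the chosen probe sets. A second probe set of Krt4 read 6.43 and 5.88 in wild type lungs, and 13.5 and 13.7 in floxed lungs, all under the filter. Its log2 fold change was 0.42, where the chosen probe set gave 0.02.

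Of the 40 genes below the filter, the means ran from 0.448 to 16.3, and no single array read above 30.3. The 32 keratins among them included Krt1, Krt2 and Krt77 of the epidermis and most hair keratins. They are untested in the main fit, and a low intensity does not show that a transcript is absent.

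The expressed keratins sat at particular places in their gene clusters, by the gene order of NCBI RefSeq (assembly GRCm38.p6). Type II keratins lie together on chromosome 15, with the type I gene Krt18 at one end. Of the 22 members there, 5 were expressed, and these were the first and next gene of the row, Krt80 and Krt7, and 3 of the last 4, Krt79, Krt8 and Krt18. Krt78, between Krt79 and Krt8, had a mean of 7.85. The members in the middle of the row, from Krt88 to Krt4, were all under 100, Krt81 among them with a mean of 76.4. On chromosome 11, where the other type I genes lie, 3 of 22 members were expressed, and Krt10, Krt19 and Krt42 were not neighbours. Krt19 lay between Krt15 and Krt9, and Krt15 had a mean of 0.911. This is a description of the order, with no test.

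**Figure D2:**
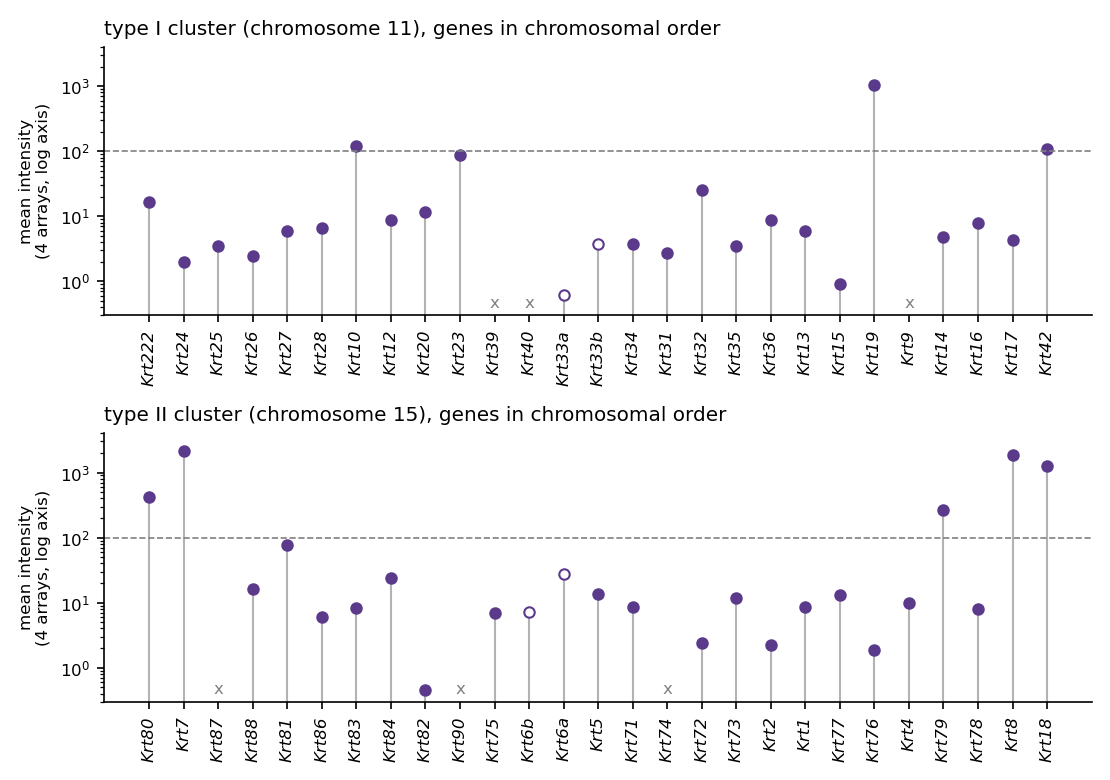
Mean intensity over 4 arrays (log axis) of keratin genes in the order of RefSeq along chromosome 11 (top) and chromosome 15 (bottom), with filled points for members, open points for keratins whose symbols end in a letter, a cross where no value was used, and a dashed line at 100. On chromosome 15 the points above the line stand at the ends of the row.

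Most claudins had differences below 0, with Cldn18 as the exception, and none passed. Of 11 tested, 10 had a log2 fold change below 0 and 1 above, and Cldn12 and Cldn1 were within 0.01 of 0. Without floxed replicate 1, 6 were below 0 and 5 above. The median of the 11 was -0.18, which is the value of Cldn22, against 0.07 for the 12 keratins and 0.00 for all genes tested. Without Cldn22 and Krt84 the medians were -0.19 and 0.10. These medians are descriptions and carry no test. The claudin median was -0.03 without floxed replicate 1 and -0.05 over the claudins that remain with the filter at the 50th percentile, so it rests in part on that array and on low genes.

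Cldn18, the claudin of alveolar epithelium, gave 2 readings that did not match. With the chosen probe set it read 2414 and 2367 in wild type lungs, and 3033 and 3141 in floxed lungs. The groups did not overlap, with means of 2390 ± 33.1 and 3087 ± 76.2 (SD, n = 2; log2 fold change 0.37 ± 0.12 SE, interval 0.09 to 0.64, limma adjusted p = 0.222). Its other probe set read 2420 and 2331 in wild type lungs, and 2881 and 1818 in floxed lungs, a log2 fold change of -0.05. On floxed replicate 2 the first probe set was the highest of the 4 arrays and the other the lowest. With the mean of the 2 probe sets the log2 fold change was 0.16 (adjusted p = 0.667), and over all alternatives the adjusted p ran from 0.0573 to 0.667. Probe sets of a gene can lie on different transcripts, and which part of Cldn18 each one reads was not analysed here.

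Cldn3 and Cldn4 are neighbouring genes on chromosome 5 and both claudins of alveolar and airway epithelium. With the chosen probe sets, each was lower on both floxed arrays. Cldn3 read 952 and 916 in wild type lungs, and 853 and 676 in floxed lungs (log2 fold change -0.29 ± 0.15 SE, interval -0.64 to 0.06, adjusted p = 0.440). Its other 3 probe sets gave -0.15, -0.20 and -0.37, so all 4 lay below 0. The probe set at -0.15 overlapped between groups, with 851 and 831 in wild type lungs, and 857 and 671 in floxed lungs. The probe sets at -0.15 and -0.20 carry the suffix x. With floxed replicate 2 left out the value was -0.13, and with floxed replicate 1 left out -0.46. Cldn4 was dim, at 32.7 and 38.9 in wild type lungs, and 25.1 and 26.4 in floxed lungs (-0.31 ± 0.13 SE, interval -0.61 to -0.01, adjusted p = 0.335).

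**Figure D3:**
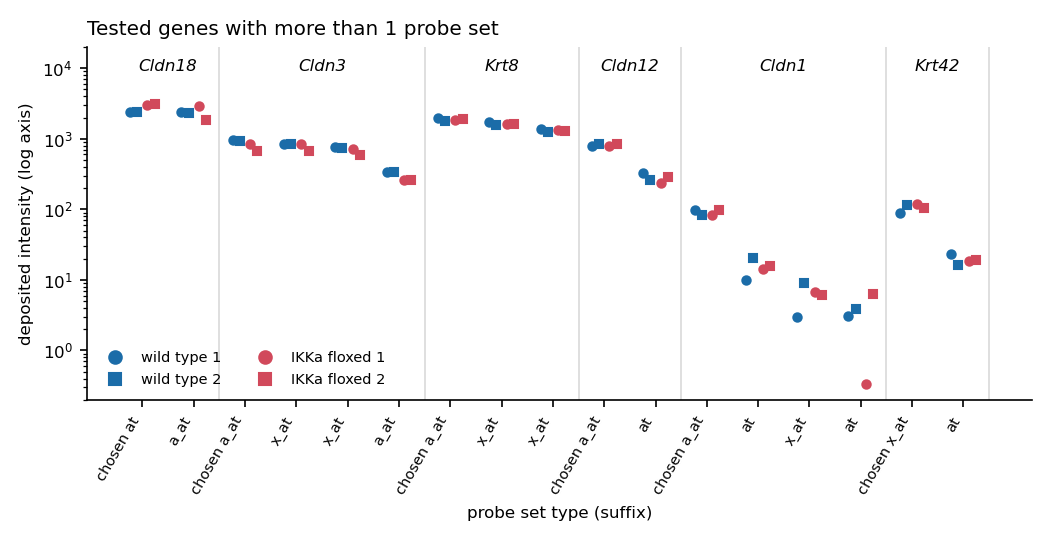
Deposited intensity (log axis) on each array for every probe set of the 6 tested genes with more than 1, ordered by mean within a gene, with the chosen one named on the axis beside its Affymetrix suffix. The probe sets of Cldn18 differ on floxed replicate 2, at 3141 and 1818, while those of Krt8 show little spread.

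Of the other claudins with means of at least 100, Cldn10 differed about as much as Cldn3. Cldn7 and Cldn12 lay near 0 with the chosen probe sets. Cldn10, which forms ion-selective pores and is made by club cells, read 416 and 422 in wild type lungs, and 386 and 296 in floxed lungs. Both floxed arrays were lower (-0.30 ± 0.15 SE, interval -0.66 to 0.07, adjusted p = 0.455), and the value was -0.11 without floxed replicate 2 and -0.48 without floxed replicate 1 (adjusted p = 0.725 and 0.171). Cldn7, a claudin of many epithelia, read 714 and 651 against 681 and 634, which overlapped (-0.05 ± 0.12 SE, interval -0.35 to 0.24, adjusted p = 0.894). Cldn12 read 802 and 835 against 793 and 839 and overlapped (0.00 ± 0.12 SE, interval -0.29 to 0.28, adjusted p = 0.994). A second probe set of Cldn12 gave -0.16.

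The remaining tested claudins had means under 100. Cldn1, needed for the barrier of skin, read 99.4 and 82.1 in wild type lungs, and 82.8 and 97.2 in floxed lungs (-0.01 ± 0.14 SE, adjusted p = 0.988), and its other 3 probe sets were at most 20.7. Cldn8, a claudin of the renal collecting duct, read 88.9 and 93.4 against 73.0 and 89.3 (-0.15 ± 0.13 SE, adjusted p = 0.683). Cldn22 read 28.3 and 22.4 against 20.02 and 20.7, with both floxed arrays below the filter (-0.18 ± 0.13 SE, adjusted p = 0.588). Several claudins best known from other organs were under the filter, namely Cldn16 and Cldn19 of the kidney, Cldn11 of myelin and testis, and Cldn14 of the inner ear, with means of 6.45, 12.9, 5.63 and 15.5. Cldn2, a cation pore encoded on the X chromosome, read 20.3 and 17.3 against 18.5 and 2.93. Cldn5, the endothelial claudin left out by the rule, read 1798 and 1913 against 2219 and 2184 (0.25 ± 0.12 SE, adjusted p = 0.418).

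**Figure D4:**
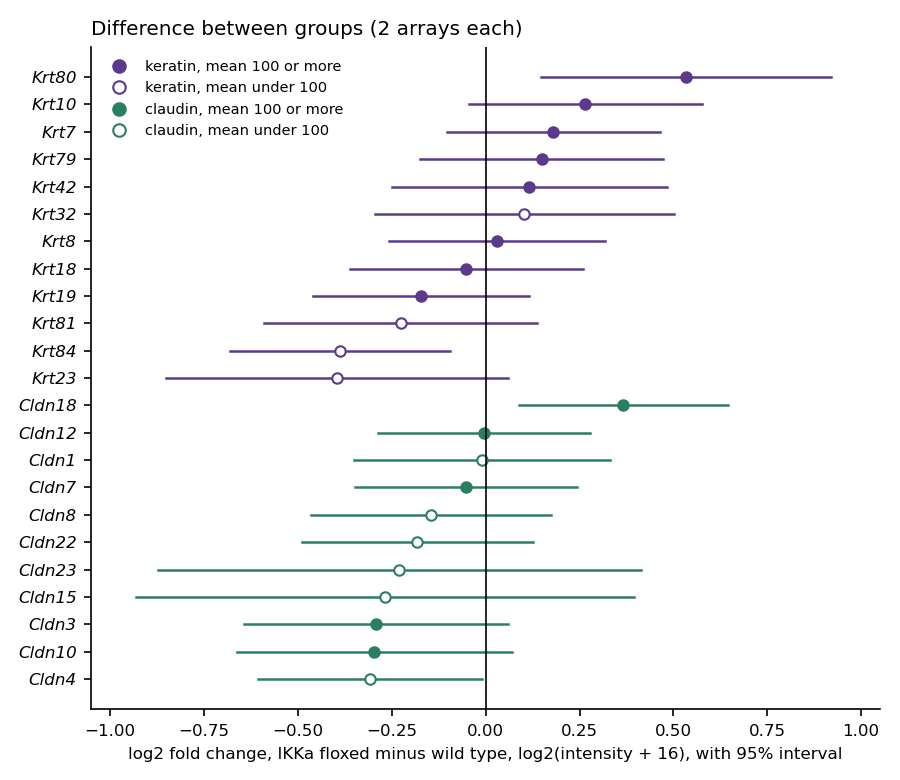
Log2 fold change (floxed minus wild type, log2 of intensity + 16) of the 23 genes tested, with 95% intervals from the limma fit, keratins above and claudins below, and open points for means under 100. Before adjustment over all genes the interval excludes 0 for Krt80, Cldn18 and Cldn4, and for Krt84, which reached the filter through wild type alone, and 10 of 11 claudins lie left of 0 with all arrays (6 of 11 without floxed replicate 1).

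Cldn15 and Cldn23 had the widest intervals of the 23 genes, through a gap between the arrays of one group. Cldn15, a cation pore of the intestine, read 73.0 and 90.6 in wild type lungs, and 43.5 and 93.9 in floxed lungs (-0.27 ± 0.28 SE, interval -0.93 to 0.39, adjusted p = 0.726). Cldn23 read 32.1 and 44.6 against 18.6 and 45.2 (-0.23 ± 0.27 SE, interval -0.87 to 0.41, adjusted p = 0.759). For both, floxed replicate 1 was the lowest array and floxed replicate 2 the highest. Without floxed replicate 1 the values turned to 0.17 and 0.18.

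Mesothelial genes differed between the same arrays. Upk3b, a uroplakin of mesothelium, read 272 and 521 in wild type lungs, and 208 and 624 in floxed lungs. Msln, the mesothelial surface protein mesothelin, read 116 and 214 against 102 and 275. Of 6 mesothelial genes, 5 were higher on wild type replicate 2 and floxed replicate 2 than on the other array of their group, the exception being Nkain4, and none passed the test between groups. The summed intensity of the 6 was 946 and 1458 in wild type lungs, and 885 and 1707 in floxed lungs. Of the 23 keratins and claudins, 7 were higher on both of these arrays, Cldn15, Cldn23, Krt7, Krt80, Cldn4, Cldn8 and Cldn12, and 5 were lower on both. Some of these gaps were very small, that of Krt7 being 0.007 log2 between the wild type arrays. The share of all genes was not counted, so the 7 and 5 are not read as a trait of these genes. Across all genes tested, deviations of same-numbered arrays were uncorrelated (r = 0.002). The part of the mesothelial genes in the claudin values was not tested, and this pairing was chosen after the values were seen.

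**Figure D5:**
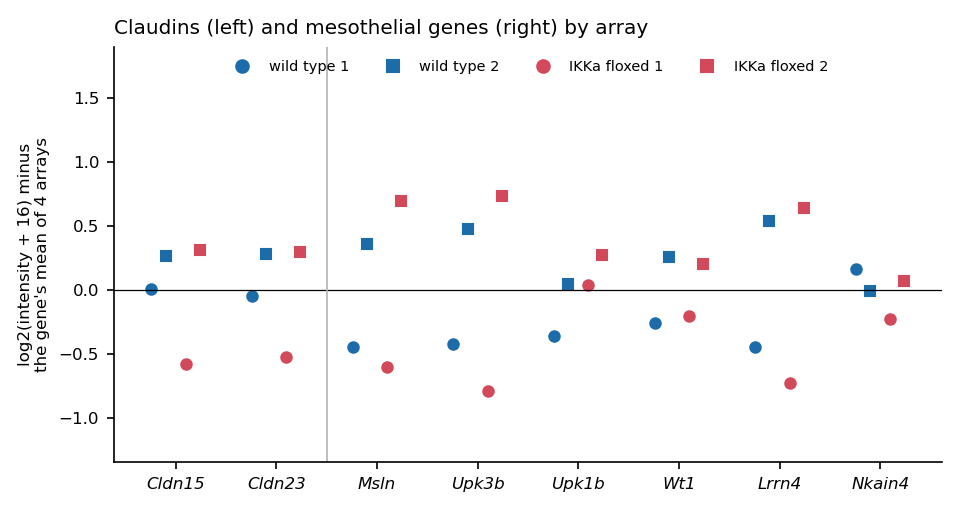
Log2 of intensity + 16 minus the mean of 4 arrays for Cldn15 and Cldn23 (left) and 6 mesothelial genes (right), with 1 point per array. Squares (replicate 2 of each group) stand above circles of the same colour for both claudins and for 5 of the 6 mesothelial genes.

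The share of keratins and claudins whose groups did not overlap was near that of all genes. This held for 11 of 23, 4 with floxed higher (Krt7, Krt80, Krt10 and Cldn18) and 7 with floxed lower (Krt19, Krt23, Krt84, Cldn3, Cldn4, Cldn10 and Cldn22). Without Krt84 and Cldn22 it held for 9 of 21, 5 of them with floxed lower. Among all genes tested the groups did not overlap for 45.8%, with 23.6% higher and 22.2% lower in floxed lungs. The standard errors of the 23 genes ran from 0.12 to 0.28, and no 95% interval reached beyond -0.93 or 0.92. These intervals are for each gene alone, with no adjustment over genes. They refer to intensity plus the added constant, and changes of 2-fold or more in that sum lay outside all 23 intervals. The constant shrinks the differences of dim genes. For Cldn15 and Cldn23 the intervals therefore do not exclude a fall of 2-fold or more in intensity itself.

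Partners of the claudins in tight junctions did not pass the test either. Of 22 genes tested on a list of tight junction partners, 0 passed in either direction by limma and 3 had an unadjusted p under 0.05 (median log2 fold change -0.08). The 4 with the largest moderated t were Mpp5, a polarity scaffold (-0.44, adjusted p = 0.277), Marveld2, tricellulin, of the corners where cells meet (0.32, adjusted p = 0.30), the adhesion molecule Jam2 (-0.31, adjusted p = 0.319) and the scaffold Mpdz (-0.28, adjusted p = 0.376).

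Desmosomes anchor keratin filaments to the membrane. Of 14 genes tested for adherens junctions and desmosomes, 0 passed and 2 had an unadjusted p under 0.05 (median -0.12). Ppl, the plakin periplakin that links keratins to desmosomes, read 319 and 312 in wild type lungs, and 218 and 238 in floxed lungs, lower on both floxed arrays (-0.44 ± 0.12 SE, adjusted p = 0.158). Perp, a desmosomal membrane protein, read 382 and 308 against 217 and 269 (-0.48 ± 0.16 SE, adjusted p = 0.247). Jup and Dsg2, plakoglobin and a desmosomal cadherin, stood at -0.32 and -0.27 (adjusted p = 0.356 and 0.361). Of 7 other intermediate filament and lamin genes, 0 passed and 0 had an unadjusted p under 0.05, and Des, the muscle filament protein desmin, stood at -0.30 (adjusted p = 0.425).

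Markers of the cells that make these proteins were read on the same arrays. Of 15 general epithelial genes, 0 passed, 0 had an unadjusted p under 0.05 and 12 lay below 0 (median -0.10), with Epcam, an epithelial adhesion molecule, at -0.27 (adjusted p = 0.396). All 8 genes of ciliated cells lay below 0, with a median of -0.38. None passed, 5 had an unadjusted p under 0.05, and their summed intensity was 4635 to 4899 in wild type and 3637 to 4247 in floxed lungs. The part of ciliated cells in the lower claudin values was not tested. Of 5 club cell genes, 8 type 1 and 7 type 2 alveolar genes, 0 passed, with medians of 0.05, 0.10 and 0.08, and 0, 1 and 1 had an unadjusted p under 0.05. The type 1 gene Pdpn, podoplanin, came closest with 1642 and 1859 in wild type lungs, and 1075 and 1072 in floxed lungs (-0.69, adjusted p = 0.0525). Pdpn went against most of its list, as 6 of the 8 type 1 genes lay above 0 and 2 below. Of 8 endothelial genes, Cldn5 among them, 0 passed, 0 had an unadjusted p under 0.05, and the median was -0.01.

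Basal, squamous and neighbouring tissue markers were mostly under the filter, like the basal keratins. Of 21 airway basal and squamous genes read, 17 were below it, among them Trp63, the transcription factor that defines basal cells, at 6.50 and 16.2 in wild type lungs, and 25.6 and 15.7 in floxed lungs. Of the 4 tested, 0 passed, and Sox2, a transcription factor of airway epithelium, was the 1 with an unadjusted p under 0.05 (396 and 352 against 244 and 248, log2 fold change -0.57, adjusted p = 0.0930). Krt6a, a keratin of injured epithelium outside the rule for its letter, read 41.3 and 11.4 against 30.3 and 25.5. Of 11 oesophageal and skin genes and 5 of thymic epithelium, 7 and 3 were below the filter, and 0 of the 6 tested passed or had an unadjusted p under 0.05. The summed intensity of the oesophageal and skin genes was 326 and 347 in wild type lungs, and 253 and 358 in floxed lungs, and that of the thymic genes 126 and 103 against 94.7 and 92.2.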

How the data were processed

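The authors deposited 1 linear intensity per probe set and array. Affymetrix Expression Console is named in the submitters' processing notes. The sources used here do not give its version, the summarisation algorithm or a genome build. The mean with 2% of probe sets trimmed at each end was 150.001 on all 4 arrays, so the deposited values had been scaled, and they were not rescaled. Of 45101 probe sets, 34958 had 1 gene symbol in the platform annotation, 932 had several and 9160 had none listed. By Entrez number, 34754 matched NCBI RefSeq and 0 symbols changed. The unit of the fit is log2(deposited intensity + 16), fitted with lmFit and eBayes of limma 3.58.1 (R 4.3.3, two-sided, no covariates) over 12735 genes, with Benjamini-Hochberg adjustment over all of them. The design left 2 residual and 4.67 prior degrees of freedom (prior SD 0.138). An exact permutation test of 2 against 2 cannot go below 0.333, so none is given. In 20 simulated runs of this comparison with 12735 genes, recovery was 4.93% for 1.5-fold, 72.3% for 2-fold and 98.9% for 4-fold changes, and 5.11% of calls were false. Groups and replicate numbers come from the sample titles. All tested members may be named, and of each other list the 4 genes with the largest moderated t. Pdpn, Ager, Sftpc, Epcam, Msln, Upk3b, Trp63 and Krt6a are named as markers. The members and lists were chosen with earlier results of these data known. The targeted gene is not analysed here.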

Additional observations from a re-analysis of the deposited data

How the results depend on the processing

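The count of 0 keratins and claudins past the threshold held under all 13 alternatives run, with a lowest adjusted p of 0.0573 (Cldn18, intensity trend and robust prior). With that trend and prior, the limma adjusted p of Krt80 was 0.0731. For the dim genes Cldn4 and Krt84 it was 0.522 and 0.433, against 0.335 and 0.220 in the main fit. The replicate block gave 0 of these genes and 198 genes in all. Across all genes tested, the deviations of same-numbered arrays were uncorrelated (r = 0.002). A single correlation over all genes cannot decide whether the numbers pair arrays for some genes. Of 6 mesothelial genes, 5 were higher on both second arrays. The count over all genes was 110 with a pseudocount of 1, 362 with a pseudocount of 64, 69 with no filter, 388 with an intensity trend and robust prior, and 145 to 251 with an array left out, the lowest without wild type replicate 2. The keratin median was 0.01 with no filter and -0.04 to 0.07 with an array left out, negative without wild type replicate 2. The claudin median was -0.29 and -0.10 with pseudocounts of 1 and 64, -0.05 with no filter, -0.05 with the 50th percentile filter, and -0.18 to -0.03 with an array left out. Near-zero genes changed sign: Krt8 to -0.03 and Cldn1 to 0.03 after quantile normalization, and Cldn1 to 0.00 with the mean of probe sets. With an array left out, 9 genes changed sign somewhere. Their ranges were -0.03 to 0.09 for Krt8, -0.15 to 0.04 for Krt18, -0.05 to 0.26 for Krt32, -0.04 to 0.28 for Krt42, -0.13 to 0.11 for Cldn1, -0.12 to 0.01 for Cldn7, -0.04 to 0.04 for Cldn12, -0.71 to 0.17 for Cldn15 and -0.64 to 0.18 for Cldn23. The other 14 genes kept their sign, and causes were not tested. The choice and filter on mean log2, and the counts without genes that reached the filter through 1 group, were added after seeing the data. With 2 arrays a group, small changes could not be detected.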
